A study of Caenorhabditis elegans with 2 samples.

Results

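The 634 regions described here are autosomal promoter peaks of UNC-39, a SIX4/5-type homeodomain protein of Caenorhabditis elegans, selected on the authors' pooled signal and on position. A peak was taken when its signal in the pooled list was 23 or more and its summit lay on an autosome, between 500 bp upstream and 100 bp downstream of the annotated 5′ end of a protein-coding transcript. They are 634 of the 30000 pooled peaks, and 634 of 3891 autosomal peaks with a summit in such a promoter window, or 16.3%. Over the whole pooled list 4556 peaks, or 15.2%, had a signal of 23 or more. Because the signal chose the members, their signals are given as a description. Members just inside the limit were at gasr-8 (signal 23.0232), rps-26 (23.0267) and C33A12.19 (23.0584), and promoter peaks just outside it were at R09H10.6 (22.9994), snu-66 (22.9914) and lsm-7 (22.9864).

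The study measured the binding of eGFP-tagged UNC-39 by ChIP-seq (chromatin immunoprecipitation followed by sequencing) in whole L2 larvae of mixed sex. The strain, OP186, carries the allele unc-119(ed3) on chromosome III and the transgene insertion wgIs186, so the bound protein came from a tagged transgene and chromatin of all larval tissues was mixed. There was 1 group of 2 biological replicates, and no other genotype, stage or treatment, so nothing was compared between conditions. The replicate lists held 30000 peaks for replicate 1 and 24978 for replicate 2, and the authors' thresholded list held 140 peaks, each of them also in the pooled list, which is 0.467% of it. The files give no read counts, so depth is unknown.

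Factors of this type bind DNA through their homeodomain and a neighbouring conserved domain, and often act with EYA co-factors. In the worm, UNC-39 is known for the migration of the CAN neurons and for mesodermal cell fates. Worm promoters are compact, neighbouring genes often start head to head from a shared promoter, and many transcripts are trans-spliced, so that the annotated 5′ end can lie downstream of the site where transcription starts.

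Sequences of 8 members are shown, all of them in the thresholded list. Each holds a repeat or word described further on. AGACGCAG and CGATTTACG were picked after the sequences of members had been compared with those of weaker peaks. Their presence here thus describes how they were found. All are 150 bases centred on the summit, 5′ to 3′ on the strand of the first-named gene, in the WBcel235 (ce11) build. Capitals mark 4 words on either strand, namely GAGAGA (a GA repeat), CACACA (a CA repeat), AGACGCAG and CGATTTACG. The first set comes from divergent promoters, at chrIV:4749988-4750137 (plus strand), chrII:11759419-11759568 (plus strand), chrIII:5679025-5679174 (minus strand) and chrIV:654846-654995 (minus strand), in that order.
Y17G9B.5 and rpl-20: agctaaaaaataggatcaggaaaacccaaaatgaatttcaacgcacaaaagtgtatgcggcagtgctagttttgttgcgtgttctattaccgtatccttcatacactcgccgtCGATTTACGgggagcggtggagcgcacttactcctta
F44E5.5 and F44E5.4: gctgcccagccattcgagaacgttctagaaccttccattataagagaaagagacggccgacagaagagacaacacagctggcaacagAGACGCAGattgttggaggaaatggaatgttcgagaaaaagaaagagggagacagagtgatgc
ska-3 and rps-12: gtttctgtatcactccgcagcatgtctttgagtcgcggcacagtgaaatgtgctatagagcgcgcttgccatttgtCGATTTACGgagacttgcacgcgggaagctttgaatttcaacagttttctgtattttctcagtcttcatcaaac
rpl-15 and K11H12.8: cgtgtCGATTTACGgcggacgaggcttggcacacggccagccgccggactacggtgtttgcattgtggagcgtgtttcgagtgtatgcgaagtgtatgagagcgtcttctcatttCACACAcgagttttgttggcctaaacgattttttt
The other set comes from promoters of a single gene, at chrIII:3867498-3867647 (plus strand), chrII:9060444-9060593 (minus strand), chrV:8842-8991 (minus strand) and chrII:10169508-10169657 (minus strand).
rpl-3: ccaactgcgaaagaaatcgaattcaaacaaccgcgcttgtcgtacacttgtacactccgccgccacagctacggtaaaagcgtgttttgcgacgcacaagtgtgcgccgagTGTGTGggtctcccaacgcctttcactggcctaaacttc
T24B8.3: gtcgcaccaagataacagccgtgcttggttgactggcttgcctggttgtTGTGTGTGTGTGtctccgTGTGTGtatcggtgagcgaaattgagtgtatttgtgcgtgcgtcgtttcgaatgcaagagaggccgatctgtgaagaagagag
B0348.10: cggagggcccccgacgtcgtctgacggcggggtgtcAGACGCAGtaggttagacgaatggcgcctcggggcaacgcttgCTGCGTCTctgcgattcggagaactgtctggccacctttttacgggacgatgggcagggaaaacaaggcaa
daf-19: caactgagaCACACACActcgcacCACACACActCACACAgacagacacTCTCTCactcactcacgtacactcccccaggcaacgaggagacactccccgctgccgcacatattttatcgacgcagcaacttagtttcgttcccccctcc
Among the 4 divergent promoters shown, those of Y17G9B.5 and rpl-20, of ska-3 and rps-12 and of rpl-15 and K11H12.8 hold CGATTTACG. The F44E5.5 and F44E5.4 promoter and the B0348.10 promoter hold AGACGCAG, the latter on both strands, and daf-19 has a run of CA repeats followed by a GA repeat.

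The strongest member lay at -56 bp from the 5′ end of tasp-1 (upstream), the worm relative of the protease taspase, with a pooled signal of 139 and rank 1 in replicate 1 and rank 3 in replicate 2. Next was rpl-3, a large-subunit ribosomal protein gene, with a signal of 122 and ranks 3 and 2. These were far above the rest: the third, iff-2, which encodes the translation factor eIF5A, had a signal of 75.3 and ranks 14 and 33, and the median member had 26.3. T24B8.3 followed at 73.0 (ranks 11 and 20), Y39B6A.43 at 72.4 (ranks 102 and 16), B0348.10 at 69.8 (ranks 1817 and 29) and daf-19 at 68.8 (ranks 40 and 69). The daf-19 gene encodes the RFX factor of ciliated neurons. Signals and ranks are each list's own, and the 2 replicate lists differ in length, so ranks are not on an equal scale.

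Other members among the 25 of highest signal, with no theme tested, included scpl-3, which encodes a small phosphatase of the CTD type (67.2), tub-2, a tubby relative (65.8), egl-30, the Gq alpha subunit (62.2), drap-1, a co-repressor of the NC2 type (61.1), lin-66, a heterochronic gene (56.7), lin-59, a SET-domain protein (55.2), and egl-21, a carboxypeptidase that matures neuropeptides (55.3). Further ones were cdc-48.1, an AAA ATPase (56.3), his-37, a histone H4 gene (52.8), and brc-1, the BRCA1 ortholog (52.7). The peak of F44E5.5 and F44E5.4 (62.4) lies between near-identical genes of the Hsp70 family, so its reads may be shared between copies and its height is uncertain.

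**Figure D1:**
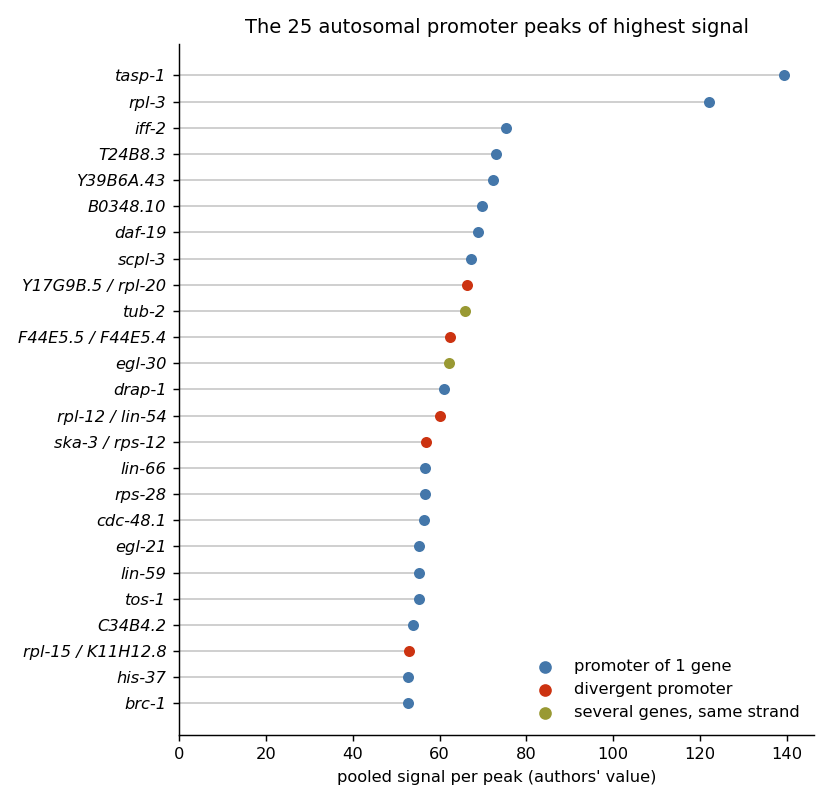
Pooled signal (authors' value, x axis) of the 25 members of highest signal, each named by its gene, or by both genes at a divergent promoter. Each point is 1 peak, with no error since the pooled list gives a single value, and tasp-1 at 139 and rpl-3 at 122 stand clear of iff-2 at 75.3.

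Divergent promoters were more frequent among the strong peaks than among the weak. The summit lay in promoter windows of both strands at 76 members, or 12.0% (exact 95% interval 9.56 to 14.8%). In 550 members (86.8%) it lay in the window of a single gene, and in 8 it lay in windows of several genes on the same strand. Among the 3257 autosomal promoter peaks with a signal under 23 the divergent share was 5.80% (5.02 to 6.66%), and among the 180 X promoter peaks of 23 or more it was 2.78% (0.908 to 6.36%). By length, 5.76% of the autosomal promoter windows lies in windows of both strands, which is close to the share among the weaker peaks. These intervals cover counting error over peaks only, and peaks of a list are not replicates. All 76 divergent members sat at genes that start head to head, with 20 to 816 bp between the 5′ ends (median 413.5 bp).

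Within the members the divergent share was higher in classes of higher signal, with overlapping intervals. It was 10.2% (7.62 to 13.4%) of the 459 members from 23 to under 30, and 16.2% (10.6 to 23.3%) of the 142 members of 30 or more outside the thresholded list. In the thresholded list it was 18.2% (6.98 to 35.5%) of 33 members, which rests on 6 peaks. These 6 were the peaks of Y17G9B.5 and rpl-20 (66.4), F44E5.5 and F44E5.4, rpl-12 and lin-54 (60.1), ska-3 and rps-12 (57.0), rpl-15 and K11H12.8 (53.0) and mdt-26 and ift-43 (46.8). The lin-54 gene encodes the DNA-binding subunit of the DRM repressor complex, ska-3 a spindle and kinetochore protein, mdt-26 a Mediator subunit and ift-43 a component of intraflagellar transport. Which gene of such a pair a peak belongs to cannot be told apart from the peak lists.

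The difference between strong and weaker peaks was clearer in replicate 2 than in replicate 1. With replicate 2 left out, the promoter peaks of replicate 1 cut at the same number of highest peaks were divergent in 7.84% (5.78 to 10.3%), against 5.82% of its weaker promoter peaks, a value within that interval. With replicate 1 left out, the values were 11.3% (9.07 to 13.9%) and 6.95%. Among the 1000 highest peaks alone, 18.6% (13.2 to 24.98%) of promoter peaks were divergent in the list of replicate 2 and 9.02% (4.75 to 15.2%) in that of replicate 1. The intervals of the replicates overlapped at both limits. The share also follows the width of the window, from 5.15% at 250 bp upstream and 50 bp downstream (weaker peaks 2.61%) to 19.1% when a partner up to 1000 bp upstream was accepted (weaker peaks 12.9%).

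**Figure D2:**
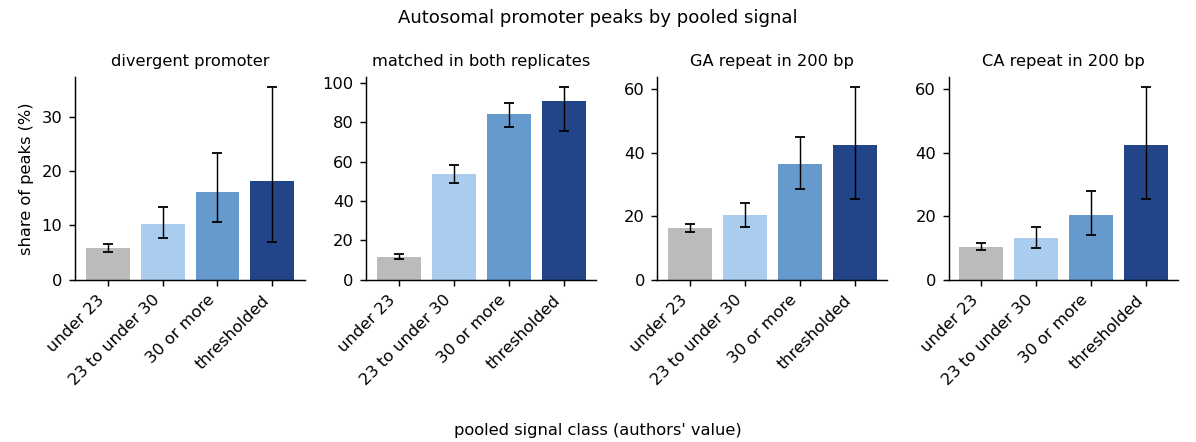
Share of autosomal promoter peaks (y axes, percent, each from 0) by class of pooled signal, for divergent promoters, matches in both replicates and GA and CA repeats within 200 bp. The class of 30 or more leaves out the thresholded members, error bars are exact 95% intervals over peaks, and the divergent share goes from 5.80% under 23 to 18.2% in the thresholded list.

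The distance window runs from 500 bp upstream to 100 bp downstream, so it fixes in large part where summits can lie, and the share upstream is about what an even spread over the window would give. With positions upstream written as negative, the median was -150.5 bp and the quartiles were -293 and -32 bp, and 520 members (82.0%, 78.8 to 84.9%) had the summit at the 5′ end or upstream of it. The weaker autosomal promoter peaks had a median of -159 bp, with 78.7% at or upstream, and the X promoter peaks of 23 or more a median of -197 bp. The order of members and weaker peaks turned with the setting: medians were -101.5 and -83 bp in a window of 250 bp upstream and 50 bp downstream, and -164 and -145 bp among peaks matched in both replicates. The fullest 50-bp steps of the members were the last before the 5′ end, with 72 peaks, and that from 150 to 101 bp upstream, with 70. At divergent promoters the nearest 5′ end was closer, at a median of -101.5 bp against -162.5 bp for promoters of a single gene, and by construction the nearest of a pair of ends is closer than a lone end.

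Most summits fell outside protein-coding genes. This held for 347 members (54.7%, 50.8 to 58.7%), while 116 lay in an intron, 57 in an untranslated exon and 114 in a coding exon of some transcript. The corresponding share outside genes was 48.4% of the weaker promoter peaks. The tasp-1, rpl-3 and daf-19 summits were intergenic, that of T24B8.3 was intronic and those of Y39B6A.43 and egl-21 lay in untranslated exons. By chromosome, members numbered 129 on I, 124 on II, 103 on III, 122 on IV and 156 on V, which was 15.4 to 17.8% of each chromosome's promoter peaks. Promoters held 17.6% (16.4 to 18.9%) of all autosomal peaks of 23 or more and 15.8% (15.3 to 16.3%) of those under 23. In the list of replicate 1 alone these shares were 15.9% (14.7 to 17.1%) and 15.5%, and in that of replicate 2 alone 19.2% (17.9 to 20.5%) and 16.2%.

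**Figure D3:**
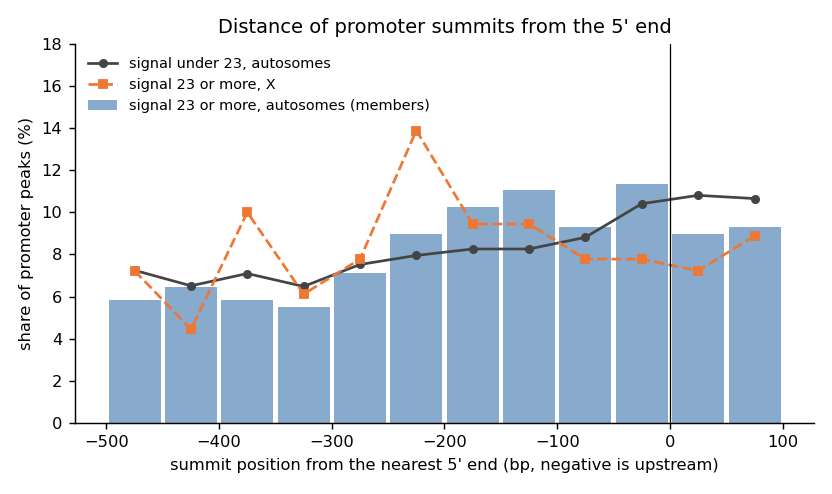
Position of the summit from the nearest annotated 5′ end in 50-bp steps (x axis, bp, negative is upstream) as the share of promoter peaks (y axis, percent) for the 634 members (bars), 3257 weaker autosomal peaks (circles) and 180 X peaks (squares). Members fill the steps from 250 bp upstream to the 5′ end more than the weaker peaks do, and the X values rest on 8 to 25 peaks each.

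The replicates shared most members but ordered them differently. A replicate peak with its summit within 100 bp was found for 529 members in replicate 1 (83.4%, against 55.4% of all pooled peaks) and for 494 in replicate 2 (77.9%, against 46.2%). Both replicates had one at 397 members (62.6%, 58.7 to 66.4%, against 19% of all pooled peaks), replicate 1 alone at 132, replicate 2 alone at 97, and neither at 8. The weaker promoter peaks had a partner in both in 11.8%, and the 2968 autosomal peaks of 23 or more outside promoters in 60.4%. The pooled list was called on the alignments of both replicates together, so these shares are not independent of the choice of members. The median offset of matched summits was 14 bp in replicate 1 and 10 bp in replicate 2.

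Matched members had a median rank of 3914 in replicate 1 and 2867 in replicate 2. Across the 397 members matched in both, the Spearman correlation of the ranks was 0.02, and across the 30 thresholded members matched in both it was 0.05. Across the 247 such members with a signal under 30 it was -0.55, in a range where the pooled signal is nearly fixed by the selection, so that a high place in one replicate goes with a low place in the other. No p is given, since peaks of a library are not independent and the pooled signal selected them. Among the 4556 highest peaks of both replicates stood 93 members, or 14.7%, against 1.94% of all pooled peaks. The signal minimum chose the members, so a share above that of all pooled peaks follows in part from the selection. Of X promoter peaks of 23 or more 14.4% stood there, and of strong autosomal peaks outside promoters 11.8%. Within the 100 highest were 15 members in replicate 1, 26 in replicate 2 and 7 in both, beside 27 in the pooled list. For scale, members made up 634 of the 4556 highest peaks of the pooled list.

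Divergent members stood much higher in replicate 2 than in replicate 1. Their median rank was 6946 in replicate 1 (23.2% of the way down the list) and 1067 in replicate 2 (4.27% of the way down). For promoters of a single gene the medians were 3873 and 3493.5, at 12.9% and 14.0% of the lists. Among the 1000 highest peaks, replicate 2 held 30 of the 76 divergent members (39.5%) and replicate 1 held 11 (14.5%). Of the 550 members at promoters of a single gene, replicate 2 held 106 there (19.3%) and replicate 1 held 91 (16.5%). Of the 114 members in the highest 1000 of replicate 2 only, 25 were divergent (21.9%, 14.7 to 30.6%), and of the 76 in the highest 1000 of replicate 1 only, 6 were (7.89%, 2.95 to 16.4%). This split was chosen after the ranks had been seen.

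The members matched in both replicates with the most unequal ranks were 2 divergent promoters, of rpl-15 and ndk-1, and 3 promoters of a single gene. The peak of rpl-15 had a signal of 40.1 and rank 28 in replicate 2, and 8.12 and rank 27284 in replicate 1. That of lgg-2, an LC3-type autophagy gene, stood at rank 23 in replicate 2 and 17931 in replicate 1. For drap-1 the ranks were 18 and 5299, and for ndk-1, a nucleoside diphosphate kinase, 89 and 11994. T22C1.11 ran the other way, at rank 136 in replicate 1 and 12938 in replicate 2. Of the 33 thresholded members, egl-30 and his-37 had no partner in replicate 1 and cox-5B, which encodes a cytochrome c oxidase subunit, had none in replicate 2.

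**Figure D4:**
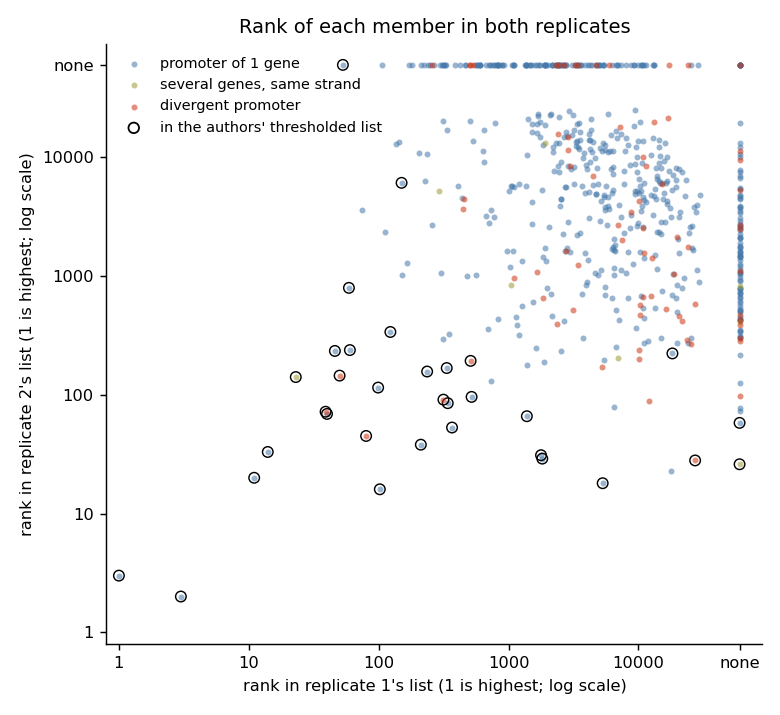
Rank of each of the 634 members in the list of replicate 1 (x axis, log scale) and of replicate 2 (y axis, log scale), with unmatched members at none, divergent promoters in red and thresholded members ringed. Only tasp-1 and rpl-3 are in the first 10 of both lists, and several ringed points low on the plot lie far to the right, rpl-15 at 27284 among them.

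Ribosomal protein genes were reached at a higher share than autosomal genes as a whole. Member windows covered 704 of the 17242 autosomal protein-coding genes, or 4.08%. Of 79 autosomal ribosomal protein genes, 16 had a member peak (20.3%, 12.0 to 30.8%), 9 of them at divergent promoters and 7 through a thresholded peak. Of all 704 genes reached, 149 were at divergent promoters and 40 had a thresholded peak. The thresholded ribosomal protein genes were rpl-3, rps-28 (56.6) and rpl-35 (48.5) at promoters of a single gene, and rpl-20, rpl-15, rpl-12 and rps-12 at divergent ones. Below them were rps-19 at 33.3, rpl-4 at 29.4 and rps-20 at 29.3. In replicates 1 and 2 their ranks were 25477 and 270 for rps-19, 27039 and 578 for rpl-4, and 6946 and 2703 for rps-20. With replicate 2 left out 10 ribosomal protein genes had such a peak, and with replicate 1 left out 18 had.

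Among 38 translation factor genes, 7 had a member peak (18.4%, 7.74 to 34.3%). After iff-2 these were pab-1, the poly(A)-binding protein (35.7), eif-3.D (29.5), eef-1B.1 (28.3), eif-3.B (27.0), eef-2 (24.6) and eef-1G (24.5). The last 5 stood between ranks 16300 and 24134 in replicate 1, while eef-1B.1 was at 525 and eif-3.B at 648 in replicate 2. Of 35 genes of mitochondrial respiration 6 had a member peak (17.1%, 6.56 to 33.6%), led by the cytochrome c oxidase genes cox-5B (52.3), cox-5A (45.5) and cox-17 (35.8). Each of these 3 had a partner in a single replicate, cox-5B and cox-17 in replicate 1 and cox-5A in replicate 2, and 2 of the 6 genes were matched in both. Chaperone genes had 6 of 47 (12.8%, 4.83 to 25.7%). The chaperonin subunits cct-7 (41.8), cct-1 (36.0) and cct-8 (25.7) and hsp-90 (36.9) were at divergent promoters. The others, hsp-1 (34.1) and dnj-24 (23.4), were at promoters of a single gene. Of the 6, 3 were matched in both replicates. For hsp-90 there was no partner in replicate 1, and for cct-8 and dnj-24 none in replicate 2.

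Some genes tied to the known roles of UNC-39, and some of neuronal and G protein signalling lists, had a member peak, with shares that rest on few genes. Over all autosomal protein-coding genes the share was 4.08%, within the intervals of the mesoderm, migration and G protein lists. Counting only genes with any pooled promoter peak, it was 18.7% over all genes, 25% for mesoderm and 17.6% for migration. For the neuronal list it was 31.0%, for muscle 36.4%, for G protein signalling 57.1% and for a Wnt list without mig-5 0%. Of 18 autosomal genes in a list of mesoderm regulators, UNC-39 relatives and EYA 2 had a member peak (11.1%, 1.38 to 34.7%), the homeobox gene ceh-51 (28.0, ranks 1679 and 22304) and the forkhead gene let-381 (27.4, ranks 1210 and 6003). Of 26 genes of cell migration and axon guidance 3 had one (11.5%, 2.45 to 30.2%), at mig-5 (36.0, the peak it shares with cct-1), mig-17 (24.7) and mig-6 (24.4). Only the mig-5 peak was matched in both replicates. Those of mig-17 and mig-6 had a partner in replicate 1 alone, mig-17 at rank 28786. Of 22 genes on a Wnt pathway list, which leaves out mig-5, 0 had a member peak. A list of neuron-wide, synaptic and neuropeptide genes had 9 of 91 (9.89%, 4.62 to 17.9%), 7 of them matched in both replicates. Among the 9 were egl-21, unc-76 (49.7) and the pan-neuronal rgef-1 (43.4). The nlp genes of the list with a member peak were nlp-33 (32.4), nlp-27 (31.1), nlp-29 (30.1) and nlp-24 (23.6). Genes joined this list by name, so its share is not one of neuronal genes alone. Muscle genes had 4 of 24 (16.7%, 4.74 to 37.4%), namely unc-112 (29.99), unc-15, which encodes paramyosin (29.8), unc-60 (23.2) and deb-1, the vinculin gene (23.1). Of these, unc-112 and unc-15 were matched in both replicates, and unc-60 and deb-1 in replicate 2 alone. G protein signalling genes had 4 of 30 (13.3%, 3.76 to 30.7%), egl-30, gpc-2 (30.8), eat-16 (28.0) and gpa-1 (23.4). The peaks of gpc-2 and eat-16 were matched in both replicates, and those of egl-30 and gpa-1 in replicate 2 alone. The intervals of the lists are wide, and the lists were compared with no test.

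Sequence around the summits differed from that of weaker promoter peaks. The median GC content of the 200 bp around the summit was 41.5% in members, 37% in weaker autosomal promoter peaks, 41.5% in strong autosomal peaks outside promoters, 42.5% in X promoter peaks of 23 or more, and 33% in windows of equal length upstream of all 17242 autosomal genes. A GA repeat (GAGAGA on either strand) lay in those 200 bp at 159 members (25.1%, 21.7 to 28.6%), against 16.3% of weaker promoter peaks, 18.4% of strong autosomal peaks outside promoters, 32.8% of X promoter peaks and 16.2% of all upstream windows. A CA repeat (CACACA) lay at 103 members (16.2%), against 10.5%, 14.4%, 24.4% and 10.4%. In the thresholded list 14 of 33 members held the GA repeat and 14 the CA repeat, 42.4% each.

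The GA repeat moved with GC content. Among members and weaker promoter peaks under 35% GC the repeat stood at 7.92% and 10.5%, from 40 to under 45% GC at 25.9% and 19.6%, and from 55% GC upward at 67.9% of 28 and 40% of 30 peaks. Their difference thus ran the other way in the lowest class. At promoters of a single gene the GA repeat read along the gene strand at 53 members and along the other strand at 94, and among the weaker peaks at 171 and 356, so both sets held it more often on the other strand. With replicate 2 left out the GA share was 19.9% against 15.6% of weaker peaks, and with replicate 1 left out 26.5% against 16.3%.

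**Figure D5:**
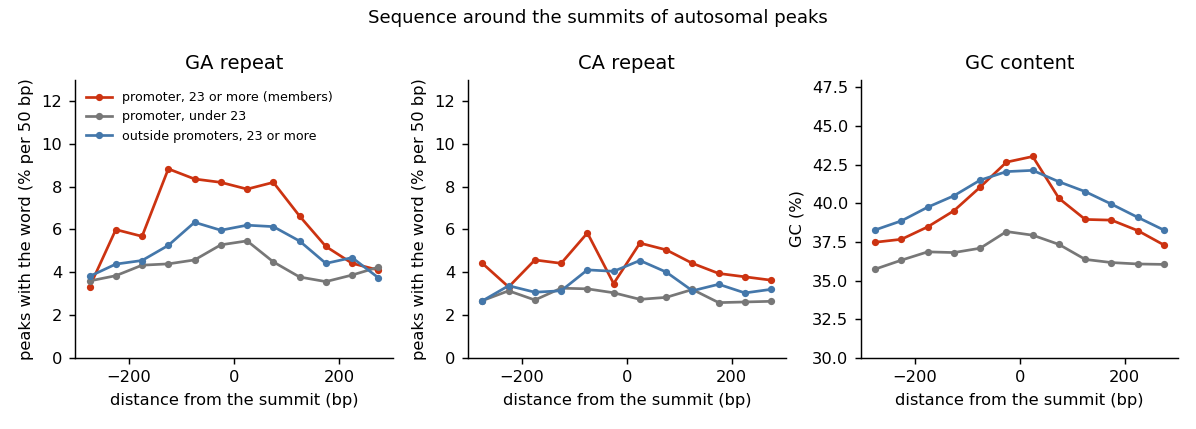
Share of peaks with a GA or CA repeat per 50 bp (left and middle, percent) and GC content (right, percent, axis from 30) by distance from the summit (bp) for members (red), weaker autosomal promoter peaks (grey) and strong autosomal peaks outside promoters (blue). Distances follow the plus strand of the genome and not the direction of the gene. The GA repeat reached 8.83% of members in the step from -150 to -101 bp and stood at 7.89 to 8.36% in the steps from -100 to 99 bp. GC reached 43.0% in the step from 0 to 49 bp.

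Other words were searched on both strands in the same 200 bp. The GC-box word CCGCCC was found at 10.6% of members and 6.63% of weaker promoter peaks, and AGGGAG at 10.6% and 5.37%. In strong autosomal peaks outside promoters CCGCCC stood at 5.15% and AGGGAG at 7.14%. In X promoter peaks of 23 or more they stood at 5.56% and 9.44%. Words of AT-rich promoters were rarer in members than in weaker promoter peaks. TTTTTTTT stood at 12.8% against 20.0%, and TATAAA at 14.7% against 20.7%. The GATA word TGATAA stood at 11.5% against 17.1%, and TTTCAG, the splice acceptor word, at 25.6% against 36.1%. Members were not alone in this. In the same order the shares were 11.5%, 11.8%, 13.1% and 27.4% in strong autosomal peaks outside promoters. In X promoter peaks of 23 or more they were 11.1%, 14.4%, 13.9% and 22.2%. A further 3 words were taken from known sites of UNC-39 relatives. TGATAC lay at 6.15% and 5.96%, TGACAC at 9.62% and 7.61%, and TCAGGTTTC at 2 members and 8 weaker peaks. CACGTG lay at 5.99% and 4.64%, CAGCTG at 4.10% and 4.73%, and the ETS word CCGGAA at 5.21% and 7.68%. A match describes letters in a window and is not a binding site.

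A further pair of words was picked after the sequences of these members had been compared with those of the weaker peaks, so their shares describe how they were found. AGACGCAG, on either strand, lay at 50 members (7.89%) and 102 weaker promoter peaks (3.13%), and at 2.98% of all upstream windows. It lay at 8 of the 33 thresholded members, which were Y39B6A.43, B0348.10, tub-2, F44E5.5, drap-1, C34B4.2, unc-76 and mdt-26. CGATTTACG lay at 7 members (1.10%) and 21 weaker promoter peaks (0.645%), and at 0.476% of all upstream windows. Of those 7 members, 5 were in the thresholded list, at Y17G9B.5, ska-3, rpl-15, cox-5B and ints-4, an Integrator subunit gene. The others were at cox-5A and Y25C1A.8, and 0 of the 459 members under 30 held it.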

How the data were processed

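ChIP-seq peaks of 2 biological replicates of eGFP-tagged UNC-39 in L2 larvae were used in the ce11 build. Per the labels' file listings, the authors called peaks against a control alignment, for each replicate and for the replicates pooled, and derived the thresholded list from those by irreproducible discovery rate. The sources used here do not name the aligner or the caller. The deposited signal per peak is the authors' enrichment value and cannot be compared between lists. The ce10 lists and the control library were not analysed here.

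Summits were placed against 25199 autosomal 5′ ends of protein-coding transcripts (Ensembl release 115, WBcel235). Replicate summits within 100 bp were matched, and ranks follow each list's signal. Words were counted in the RefSeq genome of the same build (31769 of 31805 annotated start codons read ATG). Shares carry exact Clopper-Pearson 95% intervals, which cover counting error only. No test was run, because there was 1 group and the signal chose the members. Members, lists and words were chosen with earlier results of these data known. Genes named are the 25 members of highest signal, the members of 19 gene lists, the members most unlike in rank and those at the signal limit. Genes named outside these (the mdt-26, ints-4, Y25C1A.8, unc-49, F55A11.6 and fcd-2 peaks) and list members beyond 6 per list were chosen after their values were seen. Alternatives changed the signal minimum, promoter window, match distance, sequence window and replicate. Scripts used Python 3.11.15, pandas 2.3.3, numpy 2.4.6 and scipy 1.17.1, and were tested on simulated peaks.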

Additional observations from a re-analysis of the deposited data

How the results depend on the processing

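No paired analysis was possible because there was 1 group and no test. Of the values under alternatives, 26 moved by less than the interval of the main value (counts by less than 1.5 times) and 40 moved further. Members lay nearer the 5′ end than weaker peaks in the main setting (medians -150.5 and -159 bp), and farther in the window of 250 and 50 bp (-101.5 and -83 bp) and among peaks matched in both replicates (-164 and -145 bp). Cuts on the signal gave 175 members at a minimum of 30 and 33 in the thresholded list, with promoter shares of 21.6% and 36.7%, divergent shares of 16.6% and 18.2%, matches in both replicates of 85.7% and 90.9%, GAGAGA shares of 37.7% and 42.4%, and 8 and 7 ribosomal protein genes. The thresholded members had a median position of -123 bp. Windows of 1000 bp upstream and 200 bp downstream gave 1078 members, a promoter share of 29.9% and a median position of -250 bp. Windows of 250 and 50 bp gave 388 members, a promoter share of 10.8%, a divergent share of 5.15%, a median position of -101.5 bp and 9 ribosomal protein genes. The outermost 5′ end per gene gave a promoter share of 13.9%, and a divergent partner within 1000 bp a divergent share of 19.1%. Matching within 50 or 200 bp gave 43.5% and 75.7% in both replicates. GAGAGA stood at 14.0% in 100 bp and 36.3% in the whole peak.

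Leaving out a replicate used the other replicate's own list, cut at the same number of highest peaks or, chosen after seeing the data, at the 1000 highest. At the same number of peaks, without replicate 2 and without replicate 1 in turn, the promoter share was 15.9% and 19.2% (weaker peaks 15.5% and 16.2%), the divergent share 7.84% and 11.3%, the GAGAGA share 19.9% and 26.5%, and the ribosomal protein genes 10 and 18. At the 1000 highest these were 17.3% and 24.3%, 9.02% and 18.6%, 21.8% and 36.1%, and 7 and 9. Members numbered 574 and 688, and the median position lay from -146 to -145 bp. Members are then the promoter peaks among the 4556 highest of the kept list, and any peak of the whole other list counts as a match. Such matches stood at 32.7 to 33.1%. Also chosen after seeing the data, members matched in both replicates were divergent in 12.6%. The cause of these shifts was not tested. The files give neither reads nor depth, so no error of a single signal can be given.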

Other observations

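Of all autosomal protein-coding genes 4.08% had a member peak. Of 147 autosomal cuticle collagen genes 6 had a member peak (4.08%, 1.51 to 8.67%), led by col-129 at a signal of 29.4. Nuclear hormone receptor genes had 6 of 247 (2.43%, 0.897 to 5.21%), led by nhr-142 at 40.8, and homeobox genes 2 of 64 (3.13%), ceh-51 and the Hox gene egl-5 (24.4). Histone genes had 3 of 68 (4.41%), proteasome genes 1 of 33 (3.03%, pbs-6 at 24.9), splicing genes 1 of 26 (3.85%, snr-2 at 23.7) and vacuolar ATPase genes 1 of 17 (5.88%, vha-8 at 32.3). Shares were higher, over few genes, in a further pair of lists. Cytoskeleton genes had 4 of 25 (16.0%, 4.54 to 36.1%), at unc-44, cap-2, tbb-2 and tba-1, each under 25 in signal, with 0 of them matched in both replicates. Heterochronic genes had 3 of 13 (23.1%, 5.04 to 53.8%), lin-66, lin-42 (23.8) and lin-28 (23.6), with 1 of them, lin-66, matched in both. The lin-28 peak had no partner in either replicate.

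A second member peak was present at 15 genes. At C34B4.2 both were in the thresholded list, with signals of 53.9 and 48.1 at separate 5′ ends. Elsewhere the second peak was under 27, as at Y39B6A.43 (72.4 and 24.7), brc-1 (52.7 and 25.1) and unc-49, a GABA receptor gene (35.3 and 24.4). A transfer RNA, small nuclear or small nucleolar RNA gene lay within 200 bp of the summit at 13 members, the strongest of them at F55A11.6 (38.6, a small nucleolar RNA) and the weakest at fcd-2 (23.3). The signal cannot tell such a gene from its protein-coding neighbour. Small RNA genes were not counted near other peaks, so no background share stands beside the 13.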
